A study of Mus musculus with 24 samples.

Results

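The genes of cholesterol synthesis and of its control by the transcription factor SREBP2 were followed across the livers of 24 mice. The set was fixed by name, with earlier results of these data known. It held 28 genes, of which 27 had a probe whose gene name matched exactly, out of 37074 gene names on the array. Acat2 had no exact match and has no value here. These 27 genes carried 57 probes, of which 56 passed the filter on dim probes, and each gene was read from its brightest tested probe. The probe left out was a dim one of Sqle, so no gene was lost to the filter.

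The samples were livers of male C57Bl6J mice of the third generation (F3) of 2 lineages, with 1 array per mouse. Both lineages had been bred on a growing diet with added oil, which was high-oleic sunflower oil in the control lineage and fish oil rich in eicosapentaenoic acid (EPA) in the omega 3 lineage. The reference group (9 mice) came from the control lineage and was then fed a low-fat diet, the HFoleic group (8 mice) came from the same lineage and was fed a high-fat, high-sucrose diet (HFD), and the HFepa group (7 mice) came from the omega 3 lineage and was fed that HFD. All mice were killed during fasting. The mice carried no labelled genetic change. No low-fat group of the omega 3 lineage was included, so HFepa differed from the reference in both diet and lineage, and the HFoleic and HFepa comparisons used the same reference arrays.

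Hepatocytes build cholesterol from acetyl-CoA. Acetoacetyl-CoA is turned into mevalonate, mevalonate into isoprenoid units, these into squalene, and squalene through lanosterol into cholesterol. SREBP2, the product of Srebf2, switches on most of these genes: when membrane sterol is low, the escort protein Scap carries it from the endoplasmic reticulum to the Golgi, where it is cut free, and Insig proteins hold the complex back when sterol is plentiful. The liver is a main site of this synthesis, and fasting is known to lower it.

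On the arrays the hepatocyte markers were bright in every mouse. Alb lay between 18.16 and 18.39 on the log2 scale, and the summed signal of 8 hepatocyte markers lay between 97.8% and 106% of the reference mean. Of these markers, Cps1, an enzyme of the urea cycle, was called lower in HFoleic, with a log2 difference of -0.89 (adjusted p 0.00166), and did not overlap the reference. Markers of other cell types and tissues differed between arrays and groups. In HFoleic, Lrat of the stellate cells was called higher (0.56, adjusted p 0.00150) and Sox9 of the bile ducts lower (-0.65, adjusted p 0.0279). Of the 4 stellate cell and fibroblast markers, 2 were above 0 and 2 below (median 0.0084), and the 3 tested bile duct markers were all below 0. The summed endothelial markers had medians of 104%, 121% and 123% of the reference mean in reference, HFoleic and HFepa. These sums are of linear signal and follow the brightest genes. None of the 4 endothelial markers was called, and 2 were above 0 in HFoleic and 4 in HFepa. HFepa replicate 7 had 163% for the sum of exocrine pancreas genes. Of these genes only Cela2a stood out in HFepa, where it reached 10.51 against 7.49 in the reference and 7.48 in HFoleic. Prss2, Amy2a5, Cpa1 and Ctrb1 had similar highest values in all groups. Reference replicate 3 had 450% of the reference mean for skeletal muscle genes, and reference replicate 5 had 219% for bile duct genes and 194% for stellate cell and fibroblast genes. The summed adipocyte genes varied in all groups, from 21.7% to 321% in the reference and up to 511% in HFoleic (replicate 6) and 268% in HFepa (replicate 5). Of these genes Cfd ranged widest, from 6.40 to 12.36 in the reference, 7.40 to 13.40 in HFoleic and 6.95 to 12.47 in HFepa. Adipoq, Retn and Plin1 reached only 6.17, 6.27 and 6.13 in HFoleic and 5.97, 6.34 and 6.20 in HFepa. In the reference Adipoq reached 9.71 and Retn 9.38. Lep reached 8.10, 8.06 and 7.92 in reference, HFoleic and HFepa. The counts below are also given without reference replicates 3 and 5, and the part these cells had in the results was not tested. Between 50.9% and 60.8% of the probes of an array were well above background and no spot was saturated.

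The RefSeq promoters at hand (build GRCm38.p6) gave the stretch before the start of 24 of the 28 genes, all but Fdps, Fdft1, Sqle and Stard4. Acat2, which has no expression value here, was among the 24. In the 250 bases before each start, 3 motifs were searched on both strands. They were CCAAT, the letters that the factor NF-Y is known to bind beside SREBP at sterol genes, TCACNCCAC, a common form of the sterol regulatory element, and CACGTG, the E-box that SREBP proteins can also bind. The 5 stretches shown here are those of the gene with the only TCACNCCAC match (Hmgcs1), the gene with the largest rise (Msmo1), the gene with most CCAAT matches (Mvk), and the pair of Insig genes that moved in opposite directions, with the most upstream of the 3 starts of Insig2. Each is written 5′ to 3′ on the strand of the gene, ends at the base before the start, and has the matches in capitals. They lie at chr13:119690101-119690350 (plus strand), chr8:64733579-64733828 (minus), chr5:114444019-114444268 (plus), chr5:28071162-28071411 (plus) and chr1:121332590-121332839 (minus).
Hmgcs1: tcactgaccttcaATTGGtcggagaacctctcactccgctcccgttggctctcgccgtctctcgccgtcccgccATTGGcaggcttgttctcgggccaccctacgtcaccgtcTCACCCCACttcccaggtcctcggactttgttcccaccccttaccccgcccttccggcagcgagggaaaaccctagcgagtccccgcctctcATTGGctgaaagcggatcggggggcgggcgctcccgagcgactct
Msmo1: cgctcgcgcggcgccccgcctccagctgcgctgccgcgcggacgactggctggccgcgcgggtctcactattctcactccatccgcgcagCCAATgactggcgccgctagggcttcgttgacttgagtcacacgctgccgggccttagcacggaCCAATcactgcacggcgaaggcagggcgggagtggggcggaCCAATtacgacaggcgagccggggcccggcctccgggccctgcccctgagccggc
Mvk: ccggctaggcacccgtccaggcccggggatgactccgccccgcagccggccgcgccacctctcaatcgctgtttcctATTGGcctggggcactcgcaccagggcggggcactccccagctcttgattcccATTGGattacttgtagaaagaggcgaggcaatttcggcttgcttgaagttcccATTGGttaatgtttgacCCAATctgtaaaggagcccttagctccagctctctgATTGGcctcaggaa
Insig1: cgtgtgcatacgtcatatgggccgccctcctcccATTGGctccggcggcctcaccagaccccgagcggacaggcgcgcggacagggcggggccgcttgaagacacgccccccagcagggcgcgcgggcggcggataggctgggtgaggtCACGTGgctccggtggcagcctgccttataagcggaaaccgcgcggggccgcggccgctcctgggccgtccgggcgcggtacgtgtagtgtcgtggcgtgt
Insig2: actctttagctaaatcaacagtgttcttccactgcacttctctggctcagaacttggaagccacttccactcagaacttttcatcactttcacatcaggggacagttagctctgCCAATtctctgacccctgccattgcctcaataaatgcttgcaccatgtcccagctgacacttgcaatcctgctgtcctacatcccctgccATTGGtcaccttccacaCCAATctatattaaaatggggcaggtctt

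CCAAT on either strand was found before 21 of the 24 genes, and at least 2 copies before 13 of them. Over all 27025 genes of the table the shares were 37.5% for 1 copy or more and 11.5% for 2 or more. Mvk held 5 copies, and Hmgcs1, Msmo1, Ggps1, Hsd17b7 and Insig2 held 3 each, where the other 2 starts of Insig2 held none. A gene with several starts was counted by the start with most matches. TCACNCCAC was found once among the sterol genes, in Hmgcs1, beginning 137 bases before the start, and in 1.22% of all genes. CACGTG was found before 5 sterol genes (Hsd17b7, Insig1, Dhcr7, Sc5d and Scap) and before 6.86% of all genes. Aacs held none of the 3 motifs in this window, yet was among the genes with the largest differences below, and Ggps1, with 3 CCAAT copies, was among the smallest. A match describes the letters and shows no binding.

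The first comparison, HFoleic against reference, asked how the HFD changed expression within the control lineage. Of the 27 genes, 17 were called higher and 1 lower at an adjusted p under 0.05 (limma with Benjamini-Hochberg adjustment over 30003 probes). Of all tested probes 4.05% were called higher and 3.19% lower, 7.23% in all. Since the set was chosen with earlier results of these data known, its counts beside these shares are a description and no independent test. The difference was above 0 for 24 of 27 genes, against 49.8% of all probes, and its median over the genes was 0.76 on the log2 scale, against -0.0062 over 20192 genes. In whole liver, fewer cells of a type and less RNA per cell cannot be told apart.

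**Figure D1:**
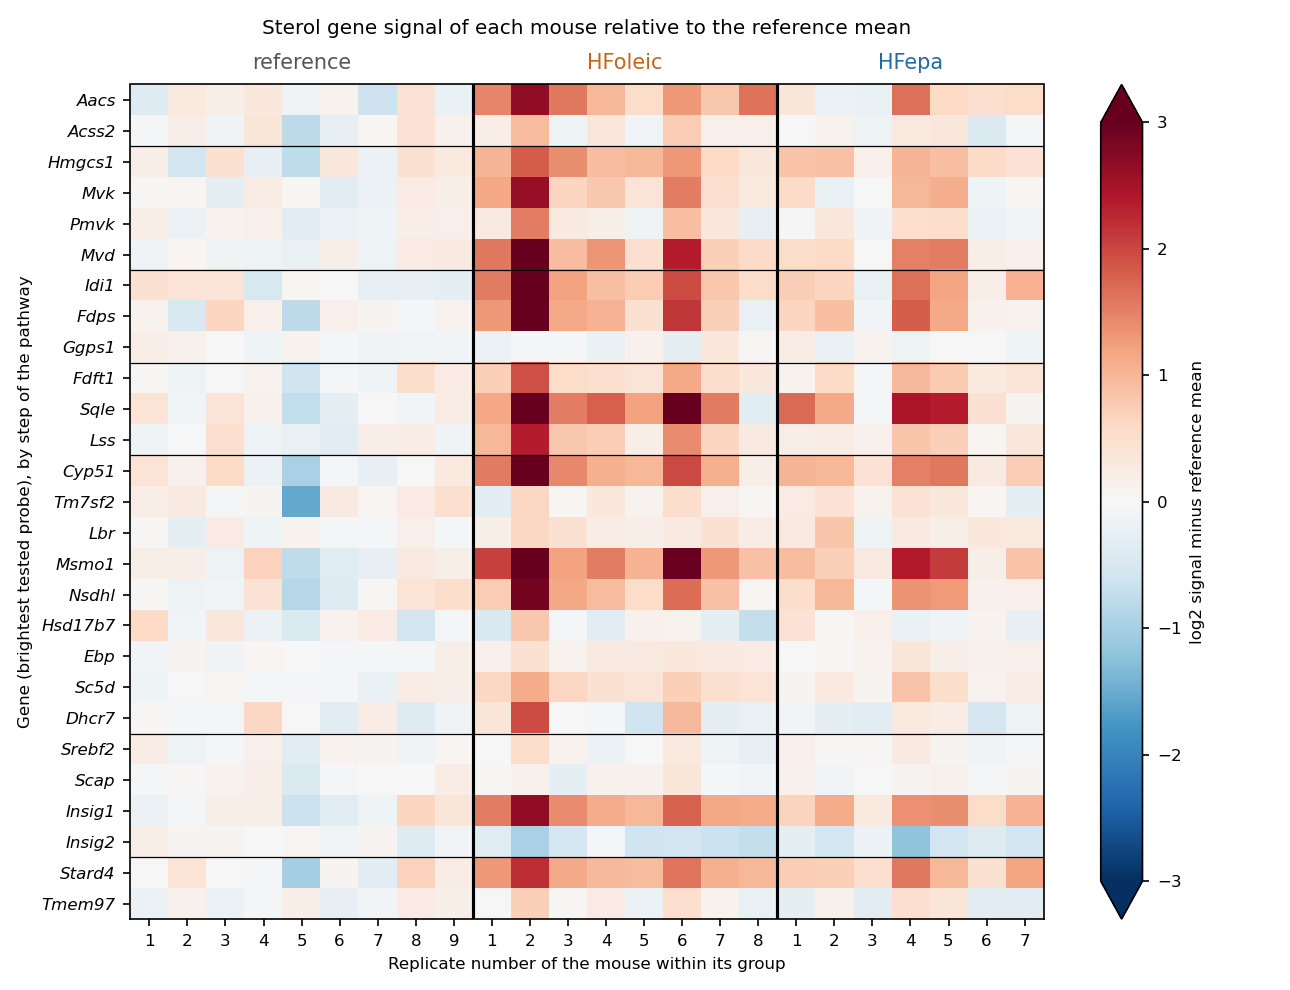
Log2 signal of the brightest probe of 27 sterol genes (rows, ordered along the pathway) in each of 24 mice (columns, by group and replicate number), minus the mean of the 9 reference mice. Red is higher and blue lower, and the colour scale ends at 3 in either direction; HFoleic replicate 2 is the darkest column, HFepa replicate 3 is close to the reference, and the row of Insig2 runs the other way.

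The early enzymes that supply mevalonate were higher in HFoleic. Aacs, which makes acetoacetyl-CoA from acetoacetate, had a log2 signal of 8.26, 8.99 and 9.33 (lowest, median, highest) in the reference mice and of 9.43, 10.27 and 11.55 in HFoleic. The groups did not overlap, and the difference was 1.37 ± 0.25 (SE), adjusted p 0.00201 in limma. Hmgcs1, the synthase of HMG-CoA, lay at 12.73, 13.70 and 13.95 in the reference and at 13.85, 14.50 and 15.31 in HFoleic, with 7 of 8 HFoleic mice above every reference mouse and a difference of 1.05 ± 0.19 (adjusted p 0.00224). A dimmer probe of Hmgcs1 gave 0.70 and was not called (adjusted p 0.0564). Acss2, which makes acetyl-CoA from acetate, was not called, with a difference of 0.29 (95% interval -0.03 to 0.62).

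Among the kinases and the decarboxylase that turn mevalonate into an isoprenoid unit, 2 of 3 were called. Mvk, the first of the kinases, ranged from 9.76 to 10.34 in the reference (median 10.14) and from 10.39 to 12.71 in HFoleic (median 10.82), a rise of 0.99 ± 0.25 (adjusted p 0.0153). Mvd, the decarboxylase, ranged from 6.80 to 7.29 in the reference (median 6.92) and from 7.52 to 10.92 in HFoleic (median 8.15), a rise of 1.48 ± 0.34 (adjusted p 0.00892). Neither gene overlapped between the groups. Pmvk, the kinase between them, differed by 0.39, with an unadjusted p of 0.0421 and an adjusted p of 0.215 in limma.

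The prenyl and squalene steps followed. Idi1, the isomerase of the isoprenoid unit, ranged from 9.92 to 10.86 in the reference (median 10.39) and from 10.95 to 13.64 in HFoleic (median 11.47), without overlap, and rose by 1.37 ± 0.29 (adjusted p 0.00571). Fdps, which makes farnesyl diphosphate, rose by 1.24 ± 0.35 (adjusted p 0.0295), and here HFoleic replicate 8, at 11.18, lay inside the reference range of 10.61 to 12.05. The call of Fdps was lost under several processing alternatives, which are listed below. Ggps1, which leads from the same substrate to geranylgeranyl diphosphate and away from sterols, gave -0.04 (95% interval -0.20 to 0.12). Its 6 probes lay between -0.16 and 0.03, and none was called.

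All 3 squalene enzymes were called higher. Fdft1, squalene synthase, rose by 0.76 ± 0.19 (adjusted p 0.0140), Lss, which folds the chain into lanosterol, by 0.93 ± 0.21 (adjusted p 0.00761), and Sqle, the epoxidase and a rate-controlling step, by 1.81 ± 0.46 (adjusted p 0.0168). Sqle had the widest spread of these, at 7.80, 8.55 and 8.95 in the reference and 8.19, 10.08 and 13.04 in HFoleic. In linear terms the mean rise of Sqle was 3.51-fold. HFoleic replicate 8 was again inside the reference range and replicate 2 was the highest mouse of all.

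Past lanosterol the genes split. Msmo1, the methyl sterol oxidase, had the largest difference of the set at 1.86 ± 0.37 (3.63-fold, adjusted p 0.00344), with 10.05, 10.97 and 11.50 in the reference and 11.68, 12.22 and 14.71 in HFoleic. Its groups did not overlap. Cyp51, the lanosterol demethylase, rose by 1.45 ± 0.29 (adjusted p 0.00426), Nsdhl, which acts with Msmo1, by 1.11 ± 0.29 (adjusted p 0.0189), Sc5d, the desaturase, by 0.60 ± 0.11 (adjusted p 0.00166), and the isomerase Ebp by 0.26 ± 0.06 (adjusted p 0.00529). For these 4 genes all 8 HFoleic mice lay above the mean of the reference. A dimmer probe of Cyp51 gave 0.62 and was not called (adjusted p 0.200), and the dimmest of the 3 probes of Msmo1 gave 1.03 (adjusted p 0.177).

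Lbr, a protein of the nuclear envelope with sterol reductase activity, rose by 0.33 ± 0.10 (adjusted p 0.0396), a call that was lost on leaving out any 1 of 10 arrays, which are listed with the processing alternatives. Tm7sf2, the other reductase of that step, was at 0.18 (adjusted p 0.657). Hsd17b7, which works beside Nsdhl, was at -0.10 (adjusted p 0.799). Dhcr7, a reductase at the end of the pathway, was at 0.27 (adjusted p 0.584). None of these last 3 genes was called, and each overlapped widely between the groups.

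Among the regulators, the Insig genes moved apart. Insig1, itself a target of SREBP and its retention factor, lay at 7.01, 7.61 and 8.30 in the reference and at 8.65, 8.95 and 10.32 in HFoleic, without overlap, and rose by 1.47 ± 0.21 (2.77-fold, adjusted p 0.000401), the smallest adjusted p of the 27 genes. Insig2, a second retention factor, lay at 14.71, 15.16 and 15.29 in the reference and at 14.13, 14.51 and 15.05 in HFoleic, and fell by 0.55 ± 0.12 (adjusted p 0.00638). All 8 HFoleic mice were under the reference mean of Insig2 and 6 were under every reference mouse. Of its 3 probes 2 were called, and the weakest gave -0.29.

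Srebf2 and Scap were not called on their brightest probes. Srebf2 differed by 0.05 (95% interval -0.14 to 0.25), whereas a dimmer probe of the same gene gave 0.42 with an adjusted p of 0.0486, so the probes of Srebf2 disagree. Scap differed by 0.05 (95% interval -0.12 to 0.22). Of the sterol carriers, Stard4, which moves cholesterol between membranes, lay at 8.64, 9.63 and 10.32 in the reference and at 10.59, 10.75 and 11.86 in HFoleic, without overlap, and rose by 1.28 ± 0.20 (adjusted p 0.000732). Tmem97, a membrane protein that binds sterol, differed by 0.16 (adjusted p 0.563).

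In all, 8 of the 27 genes (Aacs, Mvk, Mvd, Idi1, Msmo1, Sc5d, Insig1 and Stard4) were higher in every HFoleic mouse than in any reference mouse, as were 0.317% of all tested probes. Of 18 genes with more than 1 tested probe, 2 (Ggps1 and Hsd17b7) had probes of both signs, and neither was called. The probes named lie, on mouse build mm9 as the scanner files give it, at chromosome 5 from 125997524 to 125997583 for Aacs, chromosome 15 from 59162688 to 59162747 for Sqle, chromosome 5 from 28404246 to 28404305 for Insig1 and chromosome 1 from 123201085 to 123201144 for Insig2. The part of the transcript they lie in was not analysed here.

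**Figure D2:**
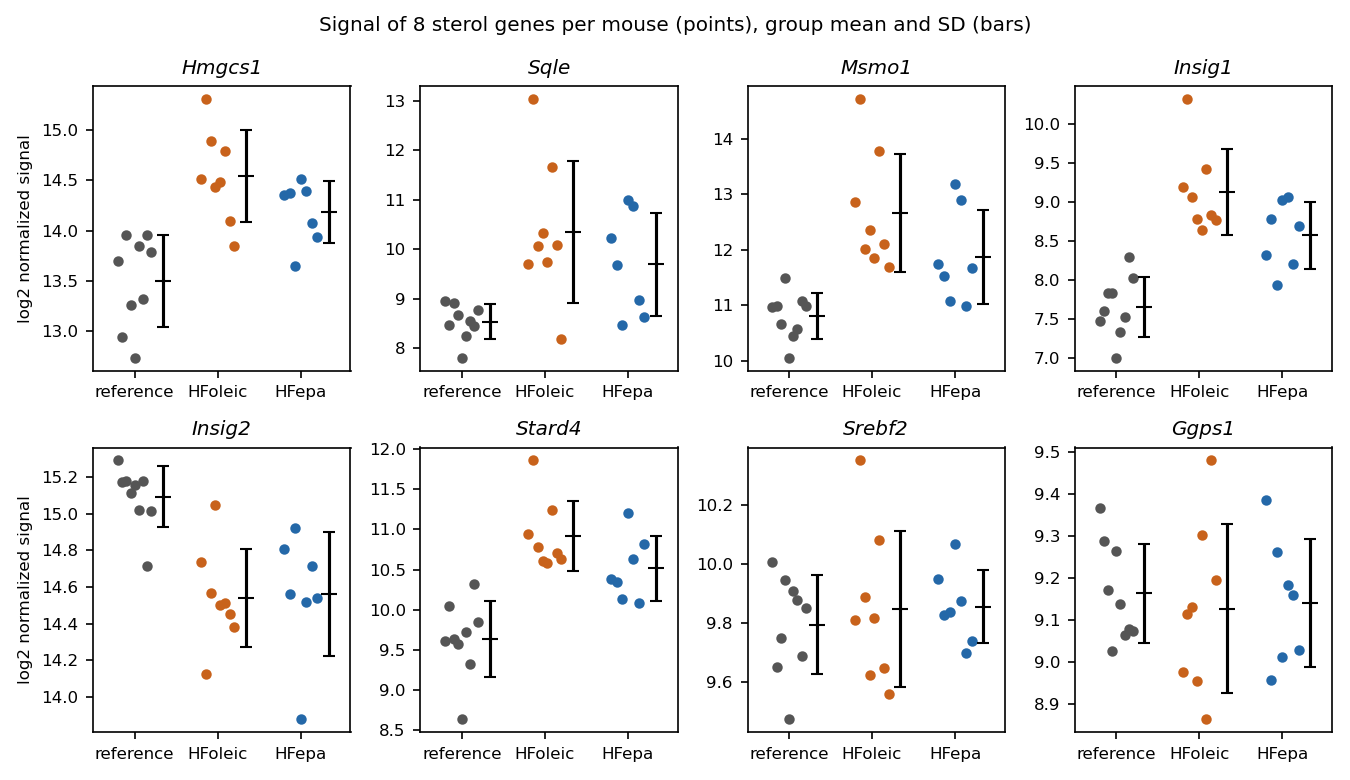
Log2 normalized signal (vertical axes, each with its own range) of 8 sterol genes in the 3 groups, with 1 point per mouse and bars for the group mean and SD. Insig1 and Stard4 separate HFoleic from the reference, Insig2 is lower in both HFD groups, and Srebf2 and Ggps1 overlap across all groups.

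The second comparison, HFepa against reference, set the HFD-fed mice of the omega 3 lineage beside the low-fat mice of the control lineage. None of the 27 genes was called on its brightest probe, and 0.393% of all probes were called. At an unadjusted p under 0.05, 12 genes were higher and 1 lower (all probes 7.07% and 6.39%), and 23 of 27 differences were above 0 (all probes 51.7%). The median difference over the genes was 0.34.

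Insig1, Insig2 and Stard4 came nearest to a call, with adjusted p of 0.0543, 0.0543 and 0.0556 in limma. Insig1 lay at 7.94, 8.70 and 9.06 in HFepa, a difference of 0.92 ± 0.22 from the reference, with 5 of 7 mice above every reference mouse. Insig2 lay at 13.88, 14.56 and 14.92, a difference of -0.53 ± 0.12, and all 7 mice were under the reference mean. Stard4 lay at 10.09, 10.38 and 11.21, a difference of 0.88 ± 0.21. All 3 passed the threshold without reference replicate 8 (adjusted p 0.0182, 0.0178 and 0.0174), without HFoleic replicate 2 (0.0279, 0.0473 and 0.0399), without HFepa replicate 3 (0.0268, 0.0276 and 0.0370), and among probes well above background on all arrays (0.0478, 0.0478 and 0.0482). Insig2 did so also without HFoleic replicate 4 (0.0399). A dimmer probe of Stard4 was called higher as it stood, at 0.65 with an adjusted p of 0.0245.

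Among the enzymes in HFepa the estimates were largest for Sqle, at 1.16 (95% interval 0.17 to 2.15), Msmo1, at 1.06 (0.28 to 1.85), and Cyp51, at 0.94 (0.31 to 1.57). Hmgcs1 gave 0.69 ± 0.20 (SE), Idi1 0.75 ± 0.30 and Lbr 0.29 ± 0.10. The adjusted p of these 6 genes lay between 0.108 and 0.282. The mice were unlike one another, since Sqle in HFepa ran from 8.47 over a median of 9.68 to 10.99 and Msmo1 from 10.98 over 11.67 to 13.18. Beside Insig2, the estimates under 0 were those of Ggps1 (-0.02), Tmem97 (-0.04) and Dhcr7 (-0.12).

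The last comparison set the HFD-fed mice of the 2 lineages side by side. No gene of the set was called and 0% of all probes were, in limma. At an unadjusted p under 0.05, 6 of the 27 genes were lower in HFepa and none higher, against 5.46% of all probes lower. The difference was above 0 for 5 of 27 genes, against 51.8% of all probes, with a median of -0.36.

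The 6 genes were Aacs, Mvk, Mvd, Lss, Sc5d and Insig1. Aacs had the smallest p, at 0.0022 unadjusted and 0.249 adjusted, with a difference of -0.90 (95% interval -1.45 to -0.36). Insig1 gave -0.55 (-1.01 to -0.09), Mvd -0.84 (-1.59 to -0.08) and Sc5d -0.29 (-0.52 to -0.06). For Sqle the interval of the difference, -1.67 to 0.36, held both a large decrease and no difference. For Insig2 it was -0.24 to 0.29 around an estimate of 0.02. Of the 7 HFepa mice, 1 (replicate 4) was above the HFoleic mean of Aacs.

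**Figure D3:**
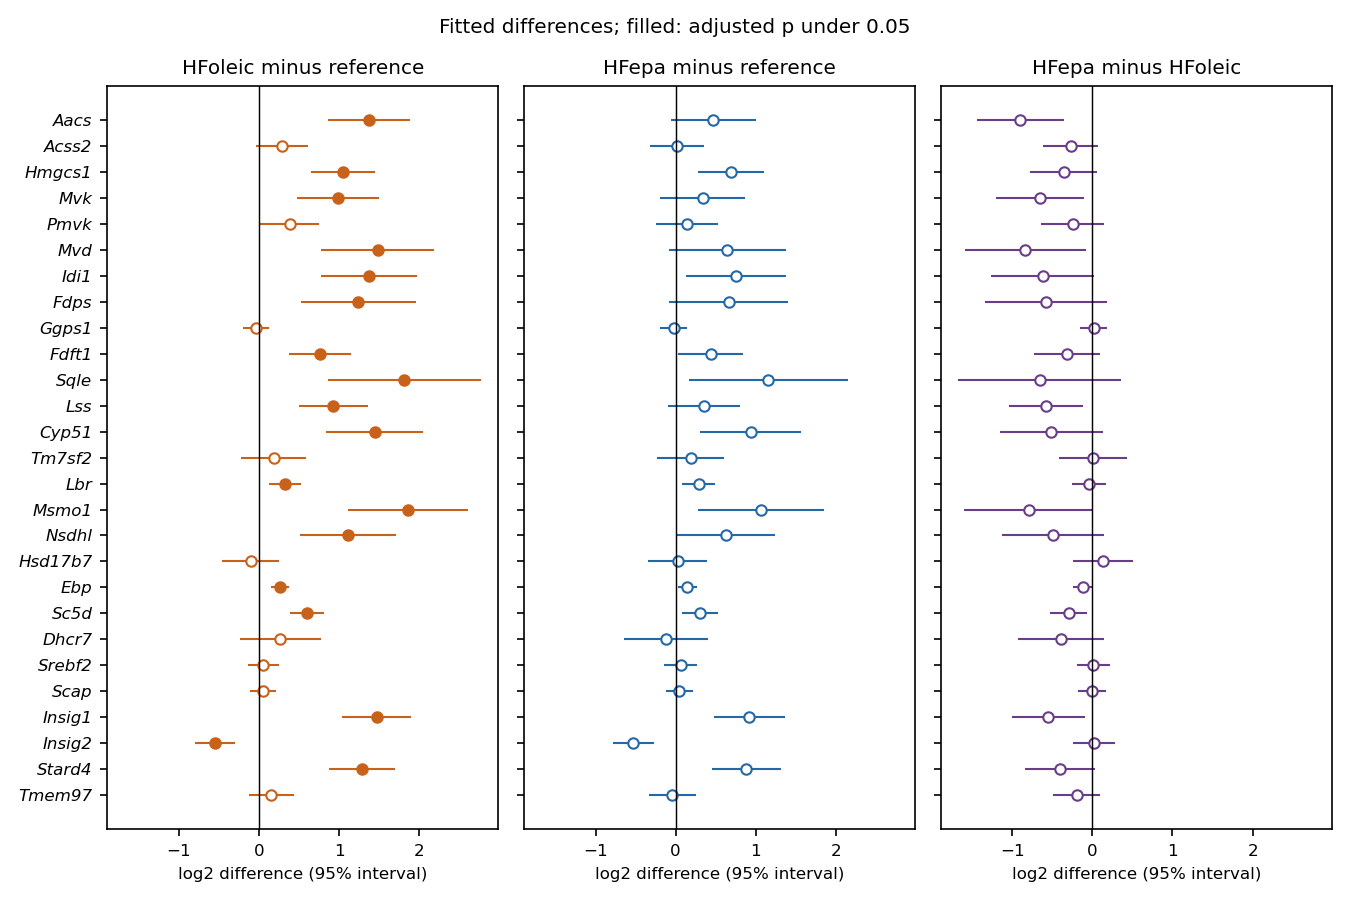
Fitted log2 differences of 27 sterol genes (points) with 95% intervals (lines) in the 3 comparisons. Filled points are genes called at an adjusted p under 0.05, 18 in HFoleic against reference and 0 in the others; both panels against the reference share its 9 arrays.

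The size of the rise differed between mice of the same group. The mean log2 signal of the 21 enzymes, set to 0 at the reference mean, was 0.84 ± 0.61 (SD, n = 8) in HFoleic, 0.43 ± 0.36 (SD, n = 7) in HFepa and had an SD of 0.18 (n = 9) in the reference. HFoleic replicates 2 and 6 were highest at 2.12 and 1.29, and replicate 8 lowest at 0.21. In HFepa, replicates 4 and 5 reached 0.99 and 0.83, whereas replicate 3 was at 0.0047 and had 9 of 21 enzymes above the reference mean. In the reference, 8 of 9 mice lay between -0.08 and 0.14 and replicate 5, the array with bile duct markers, at -0.42.

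Without HFoleic replicate 2 the calls against the reference went from 18 to 17 of 27, with Lbr lost, and the median difference of the 27 genes went from 0.76 to 0.59. The median difference between HFepa and HFoleic went from -0.36 to -0.22. Without reference replicates 3 and 5 together, 15 genes were called higher and 1 lower in HFoleic, the lost calls being Fdps (adjusted p 0.0554) and Nsdhl (adjusted p 0.0631), and 0 in HFepa.

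The arrays lay on 3 slides, each with all groups. Within slides 1, 2 and 3 the median difference of the 27 genes in HFoleic against reference was 1.35, 0.25 and 0.51, and the 18 called genes kept their sign in 18, 17 and 18 cases. In HFepa against reference it was 0.18, 0.43 and 0.46. Between HFepa and HFoleic it was -1.05 on slide 1, 0.21 on slide 2 and -0.20 on slide 3. The difference between the HFD groups thus changed sign on slide 2, which held HFoleic replicates 5 and 8 and HFepa replicates 1, 2 and 5. It was widest on slide 1, which held HFoleic replicates 1, 2 (the highest) and 3 and HFepa replicates 3 (the lowest) and 6. These within-slide differences rest on few mice. With slide as a block, 18, 0 and 0 genes were called in the 3 comparisons.

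Of the clock genes tested, 1 of 7 of the Per phase (Nr1d2, 0.58, adjusted p 0.0100) and 0 of 5 of the Bmal1 phase were called in HFoleic, and none in HFepa. Of all probes 7.23% were called in HFoleic. All 7 Per-phase genes were above 0 in HFoleic (median 0.58) and in HFepa (median 0.42), against 49.8% and 51.7% of all probes. The medians of the 5 Bmal1-phase genes were -0.18 and -0.12. The clock score, the mean of 7 standardized genes of the Per phase minus that of 5 genes of the Bmal1 phase, had medians of -0.42 in the reference, 0.87 in HFoleic and 0.59 in HFepa, and HFepa replicate 4 (3.25) and HFoleic replicate 6 (2.24) had the highest scores. These 2 mice had enzyme means of 0.99 and 1.29, and reference replicate 5, with the lowest score (-2.37), had the lowest enzyme mean (-0.42). HFepa replicate 2 had a score of -2.20 with an enzyme mean of 0.42, and HFepa replicate 7 a score of 1.68 with 0.22. How closely score and enzymes went together over the mice was not tested. With this score as a covariate 9 of the 27 genes were called higher in HFoleic and none lower, and 855 of all probes in place of 2170. The median difference went from 0.76 to 0.59. The calls lost were Mvk, Mvd, Fdps, Fdft1, Sqle, Lss, Nsdhl, Ebp and Insig2, with adjusted p from 0.0507 to 0.147. The part of time of day or of feeding in the sterol genes was not tested.

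**Figure D4:**
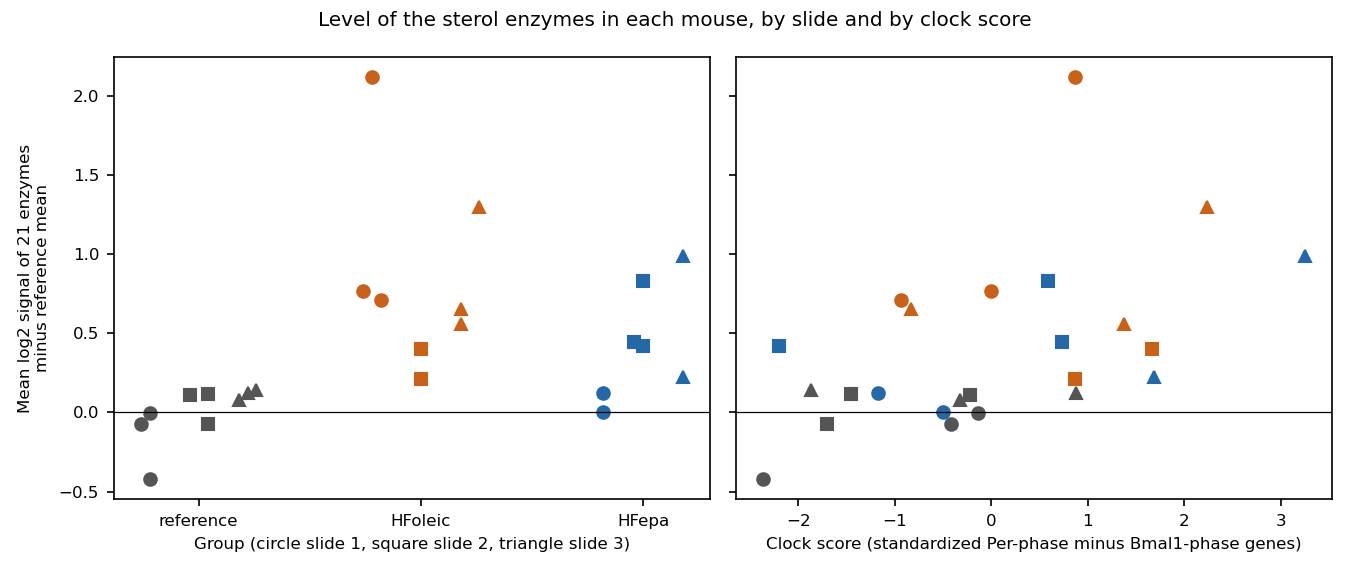
Mean log2 signal of 21 sterol enzymes minus the reference mean (vertical axis) in each mouse, by group and slide (left) and against the clock score (right, standardized units); grey is reference, orange HFoleic, blue HFepa, and circle, square and triangle are slides 1, 2 and 3. HFoleic replicate 2 is the point at 2.12, and on slide 2 the HFepa mice are at least as high as the HFoleic mice.

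The genes moved together from mouse to mouse. After the group means were taken out, the 210 pairs of the 21 enzymes had a median Pearson r of 0.62 over the 24 mice, and 89.5% of the pairs were above 0. Over all pairs of 19047 genes the median was -0.001 and the 95th percentile 0.463. These are descriptions, since the values of a mouse share its array and its RNA. Without HFoleic replicate 2 the median r was 0.484, and over all arrays left out in turn it lay between 0.484 and 0.652.

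Mvd (median r of 0.85 with the other enzymes), Msmo1 (0.85) and Lss (0.82) were closest to the rest. Several genes that were not called tracked the others all the same, among them Pmvk (0.81), Dhcr7 (0.73), Srebf2 (0.70), Acss2 (0.68) and Tmem97 (0.66). Insig2 (-0.43) and Ggps1 (-0.32) ran the other way. For Insig2 this was the same sense as its group difference, lower in mice with higher enzymes, while Ggps1 had no group difference that passed the test. Lbr (0.28) was the most loosely tied of the called enzymes.

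**Figure D5:**
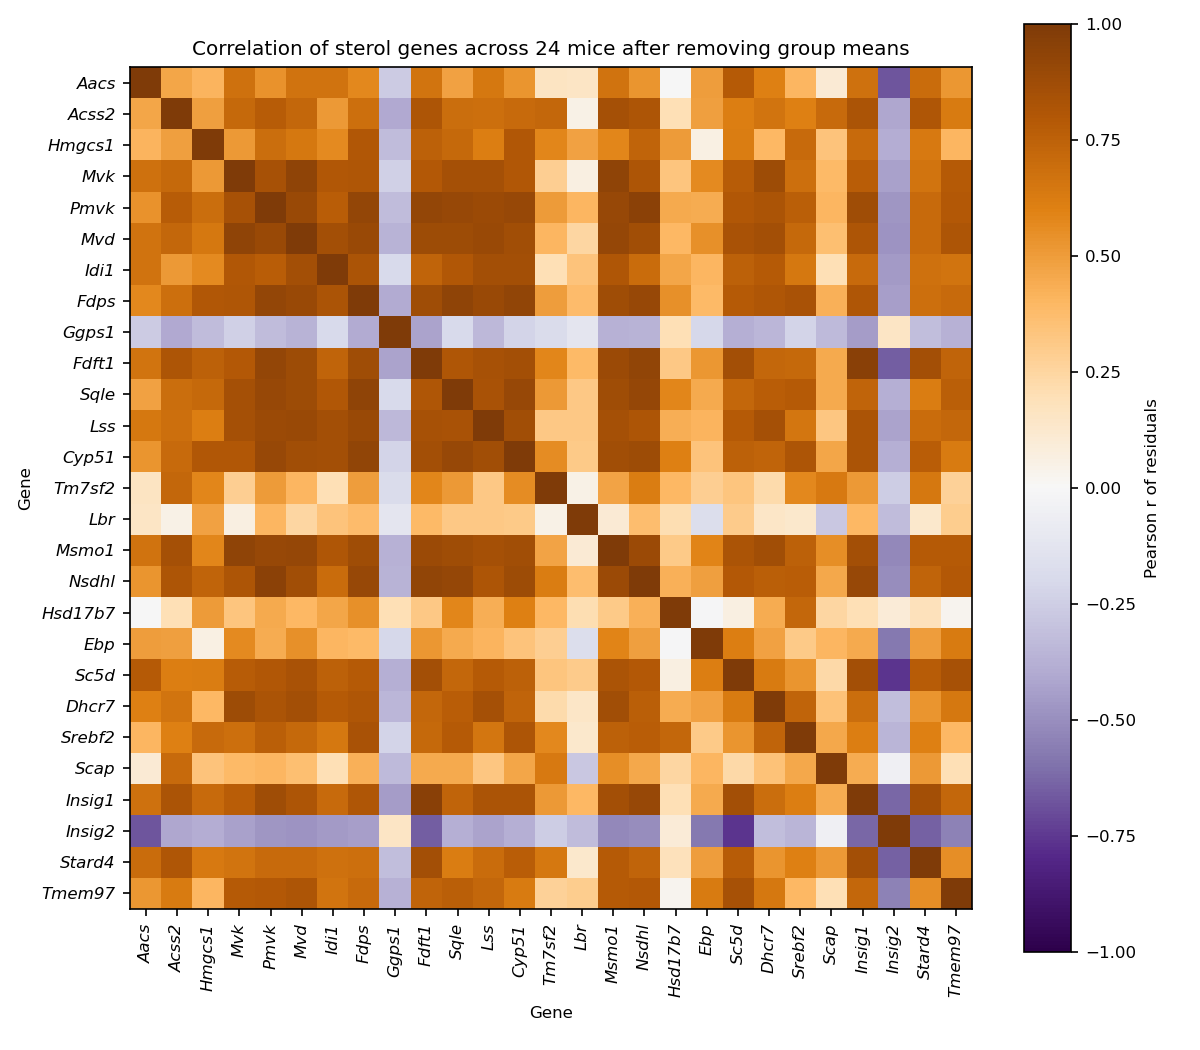
Pearson r between 27 sterol genes (both axes, in pathway order) over 24 mice after the group means were removed, from -1 (purple) to 1 (orange). Most enzymes form 1 block with a median r of 0.62 between pairs, and Ggps1 and Insig2 stand out as purple rows.

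Other genes followed the same pattern. The 8 genes outside the set most like its mean over the 24 mice, by the same residual r, included 0610007P14Rik (0.92), which RefSeq now calls Erg28 and which is known as a scaffold of the sterol demethylation enzymes, Rdh11 (0.90), a retinol dehydrogenase, 3110045C21Rik (0.88), and Mmab (0.84), an enzyme of vitamin B12 metabolism. The probe of Mmab lies 19321 bases from a probe of Mvk and that of 3110045C21Rik 16619 bases from one of Hsd17b7 (mm9). In HFoleic against reference, Erg28 rose by 0.50 (adjusted p 0.00617) and Mmab by 0.71 (adjusted p 0.00534). Rdh11 was at 0.37 (adjusted p 0.180).

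The machinery around SREBP was read from a list of 12 genes, of which 3 were called higher and 1 lower in HFoleic. Of all probes 4.05% were called higher and 3.19% lower. The median difference of the 12 genes was 0.04, with 7 above 0 and 5 below. Srebf1, which makes the SREBP forms that drive mainly fatty acid synthesis, rose by 1.02 (adjusted p 0.00552). Erlin1 (0.44, adjusted p 0.00820) and Pgrmc1 (0.25, adjusted p 0.00937), proteins of the endoplasmic reticulum that bind the Insig and Scap system or sterol, rose less. Mbtps2, a protease that frees SREBP in the Golgi, fell by 0.23 (adjusted p 0.0260). None of the 12 was called in HFepa, where Srebf1 gave 0.41 (adjusted p 0.448).

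Of 15 genes of the other isoprenoid branches, from ubiquinone and dolichol synthesis to protein prenylation, 1 (Pggt1b, 0.22, adjusted p 0.0472) was called in HFoleic, a share near the 7.23% of all probes. The median of these 15 was 0.07, against 0.93 for the 21 sterol enzymes. Of 8 genes of sterol efflux that the sterol sensor LXR is known to drive, none was called, their median was -0.00066, and Abcg8 came nearest at 0.33 (adjusted p 0.168). Among 10 tested genes of cholesterol ester, oxysterol and bile acid handling, 1 was called higher and 1 lower, against 4.05% and 3.19% of all probes. Their median was -0.15, with 3 above 0 and 7 below. Cyp7a1, the rate-limiting enzyme of bile acid synthesis, fell by 1.61 (adjusted p 0.00821) and Soat2, which esterifies cholesterol, rose by 0.37, just inside the threshold.

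Of 12 tested genes of fatty acid synthesis, 1 was called, also near the share of all probes. This was Acacb, with a log2 difference of -0.78 (adjusted p 0.0225), and the median of the 12 genes was -0.09. Fasn was at 0.63 (adjusted p 0.144) and Scd1 at -0.49 (adjusted p 0.147). Of 10 genes known to respond to fasting, 9 were called lower in HFoleic, against 3.19% of all probes. Their median was -0.58, and Pck1 (-0.74, adjusted p 0.000602) and Igfbp1 (-1.34, adjusted p 0.00344) were among those called. In HFepa the median of the fasting genes was -0.39 and none was called. At an unadjusted p under 0.05 in limma, 7 of the 10 were lower in HFepa, against 6.39% of all probes. What these genes had to do with the sterol genes was not tested.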

How the data were processed

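RNA of 24 livers was measured on Agilent mouse arrays in 1 colour, 1 array per mouse, and grouped by the sample labels (reference 9, HFoleic 8, HFepa 7). Nothing states that mice of a group were of separate litters. Per the file headers and the submitters' processing notes, the deposited scanner output (Agilent Feature Extraction 10.10.1.1) holds the median, mean and background intensity of each spot without normalization and a processed intensity corrected for background. A second set of values from the authors, in log2 units after their own filter and quantile normalization, served as an alternative. Spot marks for background, outliers and saturation came from the scanner software.

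Here log2 median signals were averaged over the spots of a probe without outlier spots. A probe was kept if 75% or more of a group's arrays had it well above background, in any group, and the 30003 kept probes were quantile normalized. A group-means model over all 24 arrays was fitted with limma 3.58.1 (lmFit, eBayes) in R 4.3.3, two-sided, with Benjamini-Hochberg adjustment over the 30003 probes within each of 3 comparisons and calls at an adjusted p under 0.05. The precision is limited by the number of arrays. The code was tested on made-up data with known changes. Tables were handled with data.table (version 1.17.8), pandas 2.3.3 and numpy 2.4.6 in Python 3.11.15, and figures drawn with matplotlib 3.10.9.

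All members are named. Up to 4 genes with the smallest adjusted p in HFoleic against reference could be named from each further list (12 genes of SREBP processing, 15 of isoprenoid branches, 8 of sterol efflux, 11 of sterol ester and oxysterol handling, 13 of fatty acid synthesis, 10 of fasting, clock genes, markers of 9 tissues or cell types), and the 8 genes most like the members by residual correlation, of which 1 is not reported here. Markers behind the sums of adipocyte and exocrine pancreas genes were named as well. Members and lists were chosen with earlier results of these data known. The labels do not say whether replicate numbers pair mice across groups, and the residuals of same-numbered mice did not all correlate above 0.1, so no pairing was used. Motifs were searched in RefSeq promoters (GRCm38.p6), and probe coordinates are those of the scanner files (mm9). Alternatives covered background correction, processed signal, the deposited table, the filter, slide, row and replicate blocks, the methods' t-test, 2-group fits, a clock covariate, the mean of all probes of a gene and leaving out arrays.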

Additional observations from a re-analysis of the deposited data

Results flagged for a closer look

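In 81 combinations of gene and group, 8 single mice lay apart from the rest of their group (Dixon's test at the 95% level). Chance flags about 1 in 20 groups. Among the enzymes, HFepa replicate 4 was highest for Aacs, at 10.55 with the next mouse at 9.49, and for Ebp, at 15.64 with the next at 15.44. HFoleic replicate 2 was highest for Sc5d, at 14.38 with the next at 13.97, and for Insig1, at 10.32 with the next at 9.43. Reference replicate 5, the array with raised bile duct markers, was lowest for Tm7sf2, at 12.33 with the next at 13.80, and for Scap, at 12.77 with the next at 13.14. For Insig2, reference replicate 8 was the lowest of its group, at 14.71 with the next at 15.02, and HFepa replicate 4 the lowest of its own, at 13.88 with the next at 14.52.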

How the results depend on the processing

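The count of 18 sterol genes called in HFoleic was 16 to 18 under the other alternatives and 9 with the clock score as a covariate, where the probes called fell to 855 in HFoleic and 0 in HFepa. The methods' t-test lost the calls of Fdps (adjusted p 0.0781) and Nsdhl (0.0566). Without the filter on dim probes, those of Fdps (0.0572) and Lbr (0.0788) were lost in limma. In the same fit the processed signal lost Ebp (0.0734) and normexp lost Lbr (0.0505). With the replicate block the counts were 16, 0 and 0 in the 3 comparisons. Residuals of same-numbered mice correlated between -0.18 and 0.10, -0.08 and 0.35, and -0.30 and 0.05, so the numbers were not taken to pair the mice, and the block lost the calls of Fdps and Lbr. The cause was not tested for any change given here. In HFepa 1 sterol gene was called with normexp, 1 with the mean of all probes and 3 with probes well above background on all arrays. Probes called in HFepa, 118 in the main analysis, were 60 with the processed signal, 0 without a filter, 0 with the methods' t-test, 13 in the fit of 2 groups and 45 without reference replicates 3 and 5. Between HFepa and HFoleic, 2 probes were called with the stricter filter and 3 without reference replicates 3 and 5, a choice made after seeing the data.

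With 1 array left out in turn, sterol genes called ranged from 17 to 18 (HFoleic), 0 to 3 (HFepa) and 0 to 0 (between lineages), probes called from 1602 to 3097, 0 to 499 and 0 to 15, and the median r of enzymes from 0.484 to 0.652. The call of Lbr was lost without reference replicate 1, 2, 4, 6, 7 or 9 or HFoleic replicate 2, 3, 7 or 8, and that of Fdps without reference replicate 5 or HFoleic replicate 6.

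Signs turned in 22 values outside leaving out 1 array, all of at most 0.133 in size. In HFepa against reference these were Acss2 -0.0056 (normexp), Hsd17b7 -0.064 (replicate block), Acss2 -0.13 (clock score), Scap -0.019 (clock score), Ggps1 0.020 (mean of probes), Acss2 -0.11 (2 reference arrays left out) and Tm7sf2 -0.038 (2 reference arrays left out). In HFoleic against reference these were Srebf2 -0.016 (clock score), Scap -0.032 (clock score), Hsd17b7 0.0061 (mean of probes), Tm7sf2 -0.046 (2 reference arrays left out) and Srebf2 -6.3e-05 (2 reference arrays left out). In HFepa against HFoleic these were Ggps1 -0.021 (processed signal), Srebf2 -0.012 (processed signal), Ggps1 -0.0011 (slide block), Tm7sf2 -0.031 (slide block), Scap 0.0029 (row block), Srebf2 -0.019 (replicate block), Insig2 -0.018 (replicate block), Scap 0.013 (clock score), Insig2 -0.013 (clock score) and Srebf2 -0.050 (mean of probes).

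With 1 array left out in turn, 16 differences ranged across 0. In HFepa against reference these were Acss2 -0.078 to 0.091, Ggps1 -0.063 to 0.0081, Hsd17b7 -0.043 to 0.104, Scap -0.0071 to 0.074, Tm7sf2 -0.0013 to 0.27 and Tmem97 -0.13 to 0.011. In HFepa against HFoleic these were Ggps1 -0.027 to 0.064, Insig2 -0.038 to 0.14, Lbr -0.13 to 0.029, Scap -0.050 to 0.040, Srebf2 -0.032 to 0.081 and Tm7sf2 -0.066 to 0.084. In HFoleic against reference these were Ggps1 -0.087 to 0.0014, Scap -0.0032 to 0.097, Srebf2 -0.020 to 0.094 and Tm7sf2 -0.0093 to 0.26.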
